A study of Homo sapiens with 9 samples.

Results

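The lysyl oxidase family was examined in HepG2 cells, a human line from a liver tumour, across the 3 treatment groups of the series. Its members are LOX, LOXL1, LOXL2, LOXL3 and LOXL4, taken by the gene symbol that the platform annotation gives to the transcript clusters (sets of probes for 1 gene) of the Clariom S array. Of the 5 members, 4 were measured, by 1 transcript cluster each, among 17687 named genes. LOXL2 was not analysed here, since its symbol was paired with no cluster. The family was chosen by the values of LOXL4 on these same arrays, lower with Ad-VDR and higher with VitD, so LOXL4 is described without a test. LOX, LOXL1 and LOXL3 entered by family membership alone, and their differences were tested.

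All cells carried an adenovirus for 48 h, followed by 4 h with VitD (calcitriol, the hormonal form of vitamin D) or its vehicle DMSO. CONT cells received Ad-C, a virus without an insert, and vehicle, VDR cells received Ad-VDR, which encodes the human vitamin D receptor, and vehicle, and VDR+VitD cells received Ad-VDR and 10 nM VitD. Each of 3 independent experiments contributed 1 array to each group, giving 3 arrays for CONT, 3 for VDR and 3 for VDR+VitD. No group received VitD without Ad-VDR, and VDR came from the viral vector, so the response of cells with their own level of the receptor was not measured.

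Lysyl oxidases are secreted copper enzymes that oxidise the amino group of lysines in collagen and elastin to aldehydes, which then form the covalent crosslinks of matrix fibres. LOX and LOXL1 are made with a propeptide that is cut off outside the cell, while LOXL2, LOXL3 and LOXL4 carry scavenger receptor cysteine-rich domains before a similar catalytic domain. In the liver the family is best known for the stiffening of scar collagen in fibrosis. The vitamin D receptor is a transcription factor that binds DNA with the retinoid X receptor and is switched by its ligand.

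Upstream sequences of LOXL4 and LOX are shown, as the family was chosen on LOXL4, and LOX is its founding member, high in all groups. Both are from RefSeq (GRCh38.p14) and hold the 250 bases before the annotated start of the gene, on the minus strand of chr10:98268195-98268444 for LOXL4 and of chr5:122078260-122078509 for LOX. Capitals mark GGGCGG (the GC box bound by SP1) in LOXL4 and ACGTG (the core bound by hypoxia-inducible factors) in LOX, each on either strand.
LOXL4: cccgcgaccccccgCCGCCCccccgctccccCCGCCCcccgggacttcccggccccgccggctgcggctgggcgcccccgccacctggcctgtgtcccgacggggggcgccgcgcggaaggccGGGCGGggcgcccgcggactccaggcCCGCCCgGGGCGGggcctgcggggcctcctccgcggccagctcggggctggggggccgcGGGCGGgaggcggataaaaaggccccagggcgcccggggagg
LOX: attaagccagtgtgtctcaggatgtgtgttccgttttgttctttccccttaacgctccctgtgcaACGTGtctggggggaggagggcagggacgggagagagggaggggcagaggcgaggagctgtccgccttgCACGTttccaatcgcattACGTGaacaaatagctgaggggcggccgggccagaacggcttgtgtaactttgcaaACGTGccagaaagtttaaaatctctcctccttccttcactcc

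The LOXL4 window was 86.4% G and C, against a median of 58.0% over 35114 windows of the same length, and 99.8% of these windows held less. It had 6 matches to GGGCGG, a number reached by 2.22% of all windows, and at least 1 match was found in 42.6%. The LOX window, with 55.2% G and C, had 1 match to GGGCGG and 4 to ACGTG, and 4 or more of the latter were found in 0.669% of windows. LOXL1 and LOXL3 (66.8% and 64.4% G and C) had no match to either motif, and TATAAA was in none of the 4 windows and in 10.7% of all. The response elements of the receptor are built of 6-base half-sites. The half-site AGGTCA was found in 12.1% of all windows on either strand, as was GGGTCA, while AGTTCA was found in 8.8% and GGTTCA in 7.16%. At least 1 of these 4 was in 33.8% of all windows and in none of the 4 members, and the DR3-type element, a pair of them with 3 bases between, was in 0.0655% of all windows and in no member. These matches describe letters in a short window only, and binding was not measured.

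LOXL4 is the member on whose values the family was chosen, so its values are given as a description only. In CONT cells it had log2 values of 8.57, 8.88 and 8.37 in experiments 1, 2 and 3, and with Ad-VDR and vehicle it had 7.78, 7.86 and 7.56. With 10 nM VitD on top of Ad-VDR it had 12.27, 12.47 and 12.06. Every VDR value was below every CONT value and every VDR+VitD value above both, so no groups overlapped. The group means were 8.61 ± 0.26 in CONT, 7.73 ± 0.16 in VDR and 12.27 ± 0.21 in VDR+VitD cells (SD, n = 3 each). On the fold scale LOXL4 was 1.83-fold lower in VDR than in CONT cells, 23.2-fold higher with VitD than in VDR cells without it, and 12.6-fold higher in the former than in CONT cells.

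**Figure D1:**
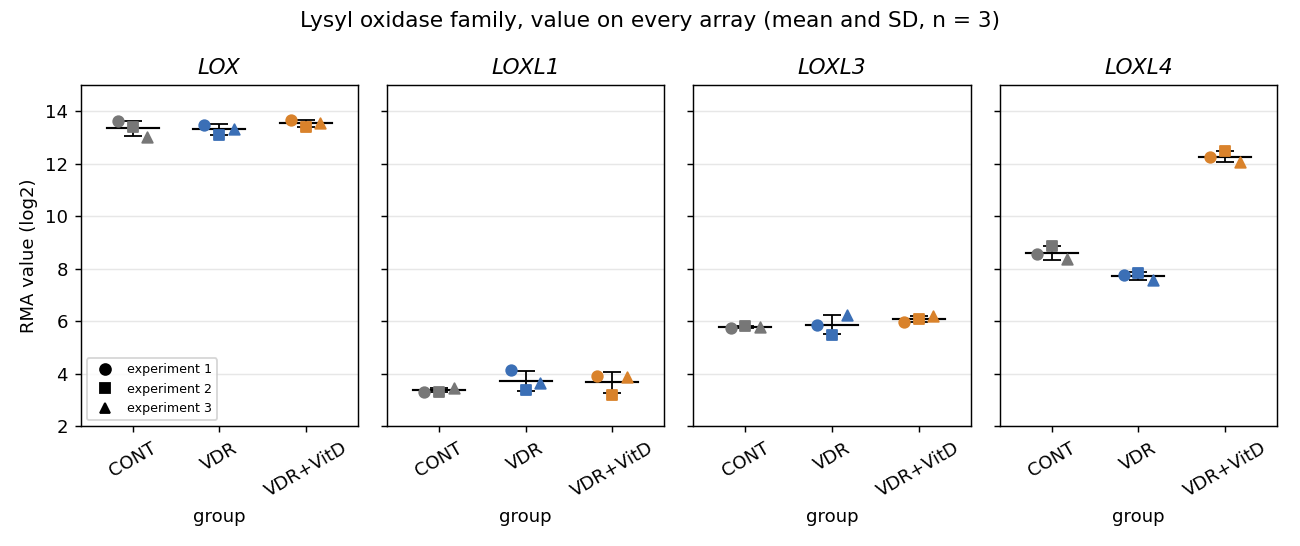
RMA values (log2, vertical axis) of LOX, LOXL1, LOXL3 and LOXL4 on every array, by group (CONT, VDR, VDR+VitD), with the experiment given by the marker, the group mean as a horizontal bar and the SD as an error bar (n = 3). LOXL4 lies between 7.56 and 7.86 in VDR cells and between 12.06 and 12.47 in VDR+VitD cells, while the groups of LOX and of LOXL1 overlap.

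The size of both LOXL4 differences was similar in the 3 experiments. With Ad-VDR alone LOXL4 had log2 differences of -0.79, -1.02 and -0.81 from the CONT array of the same experiment. With VitD it had differences of 4.49, 4.61 and 4.50 from the VDR array of the same experiment. Experiment 2 gave the highest LOXL4 value in each group and experiment 3 the lowest. By size of the rise with VitD, LOXL4 was in place 5 of 17687 genes. The family was chosen on this rise, so the place is not read as a result.

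LOX, the founding member and the main crosslinker of fibrillar collagen, was at a steady level in all groups. Its log2 values were 13.61, 13.39 and 13.03 in CONT, 13.49, 13.10 and 13.33 in VDR, and 13.66, 13.38 and 13.56 in VDR+VitD cells. The 3 ranges overlapped, and the group means were 13.34 ± 0.29, 13.31 ± 0.20 and 13.53 ± 0.14 (SD, n = 3 each). LOX differed by -0.04 between VDR and CONT cells (standard error 0.16, 95% interval -0.39 to 0.31, limma adjusted p = 0.975). With VitD it differed from VDR cells by 0.23 (standard error 0.16, 95% interval -0.12 to 0.58, limma adjusted p = 0.604), and the difference was positive in 3 of 3 experiments, between 0.17 and 0.28. Upper bounds of 1.24-fold with Ad-VDR and 1.49-fold with VitD were thus left for a rise in LOX.

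LOXL1, which acts in the renewal of elastic fibres in mice, was at the lower end of the array, with a mean of 3.59 over the 9 arrays, below the 25th percentile of gene means (4.52). Its log2 values were 3.33, 3.33 and 3.46 in CONT, 4.13, 3.37 and 3.65 in VDR, and 3.93, 3.20 and 3.89 in VDR+VitD cells. The spread was wider in both groups with Ad-VDR (SD 0.38 and 0.41, against 0.08 in CONT cells), and all groups overlapped. The difference was 0.34 for VDR against CONT cells (standard error 0.21, 95% interval -0.10 to 0.79, limma adjusted p = 0.662). With VitD LOXL1 differed from VDR cells by -0.04 (standard error 0.21, 95% interval -0.49 to 0.40, limma adjusted p = 0.962).

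LOXL3, an oxidase needed for the palate and spine of the mouse embryo, was also not called in any comparison. It had log2 values of 5.74, 5.83 and 5.78 in CONT, 5.87, 5.50 and 6.23 in VDR, and 5.97, 6.08 and 6.21 in VDR+VitD cells. VDR cells overlapped with both other groups, whereas each VDR+VitD value was above each CONT value. The share of all genes with such a separation was not counted. The difference was 0.08 for VDR against CONT cells (standard error 0.16, 95% interval -0.27 to 0.44, limma adjusted p = 0.927) and 0.22 for VDR+VitD against VDR cells (standard error 0.16, 95% interval -0.13 to 0.57, limma adjusted p = 0.622). Between VDR+VitD and CONT cells it was 0.30 (standard error 0.16, 95% interval -0.05 to 0.66, limma adjusted p = 0.393), positive in 3 of 3 experiments. In the same comparison LOX differed by 0.19 (95% interval -0.16 to 0.54) and LOXL1 by 0.30 (95% interval -0.15 to 0.75), with limma adjusted p of 0.643 and 0.536.

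**Figure D2:**
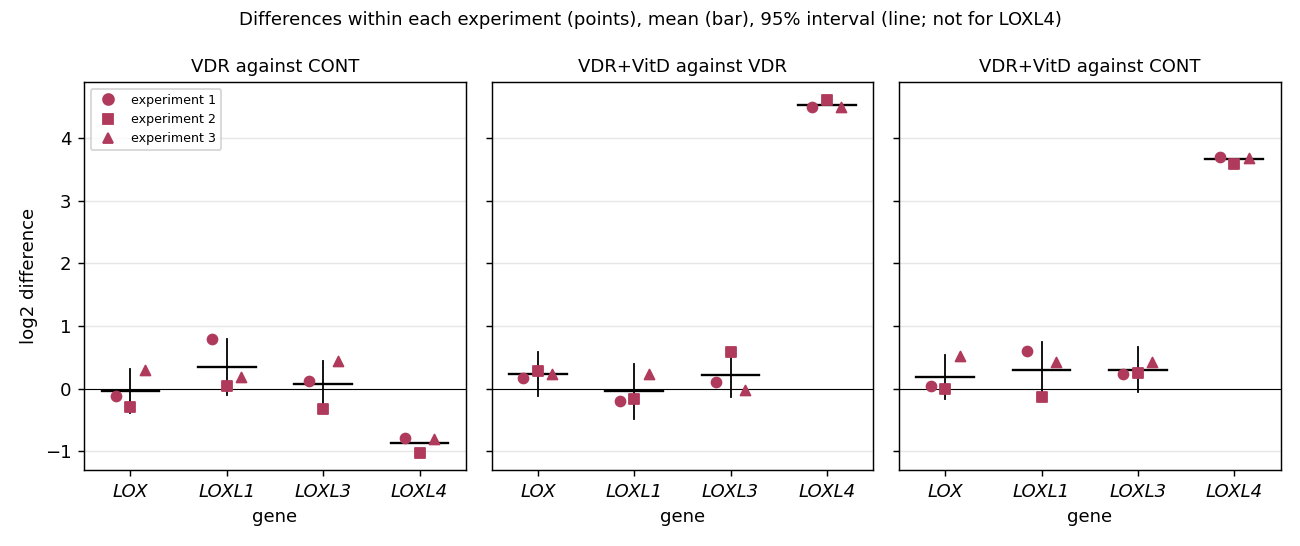
Log2 differences (vertical axis) of the 4 measured members within each experiment (markers) in the 3 comparisons, with the mean as a bar and, for LOX, LOXL1 and LOXL3, the 95% interval of the limma fit as a line. LOXL4 lies between 4.49 and 4.61 for VDR+VitD against VDR, and the intervals of the other 3 members include 0 in all 3 comparisons.

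The calls were read against those over all genes. A gene was called where the limma adjusted p was under 0.05 and the fold over 1.5, which applied to 0.407% of the 17687 genes for VDR against CONT (72 genes; 0.102% higher and 0.305% lower), to 4.16% for VDR+VitD against VDR (735 genes, 464 of them higher) and to 4.81% for VDR+VitD against CONT (2.69% higher and 2.12% lower). The count for VDR against CONT was 140 when the fit held the experiments as blocks. None of LOX, LOXL1 and LOXL3 was called in any of the 3 comparisons, and none had an unadjusted limma p under 0.05, the lowest being 0.0867 for LOXL3 in VDR+VitD against CONT cells. LOXL4 met the thresholds in all 3, which is not read as a result. Its calls for VDR against CONT and VDR+VitD against VDR follow from its choice. The comparison of VDR+VitD with CONT cells uses the same arrays. Of the 54 genes lower with Ad-VDR, 16 were also called higher with VitD, LOXL4 among them. Both comparisons use the VDR arrays, so an error in these would move both differences of a gene in opposite directions.

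The 5 genes whose log2 values ran most alike to LOXL4 over the 9 arrays were SERPINB9, CSF1, MYRF, CYP24A1 and EZR, with Pearson correlations of 0.995, 0.995, 0.993, 0.992 and 0.991. The 9 arrays share 3 groups, and 123 of the 17686 other genes had a correlation over 0.95. SERPINB9 encodes an inhibitor of granzyme B, CSF1 the growth factor of macrophages, MYRF a transcription factor known for myelin genes, CYP24A1 the enzyme that breaks down VitD, and EZR ezrin, which links membrane to actin. Among the members, the correlation with LOXL4 was 0.49 for LOX, 0.48 for LOXL3 and 0.08 for LOXL1.

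The 5 genes differed from LOXL4 in size and in their values with Ad-VDR alone. They were chosen for this pattern, so their values are described without a test, except for CYP24A1, which marks the response to VitD. CYP24A1 had log2 differences of -1.60 with Ad-VDR (limma adjusted p = 0.0165) and 10.61 with VitD, and SERPINB9 had -0.70 and 5.39. CYP24A1 was not called with Ad-VDR without CONT replicate 2 or 3 or VDR replicate 1 (limma adjusted p between 0.0795 and 0.121). CSF1 had -0.47 with Ad-VDR and 3.25 with VitD. MYRF had -0.27 and 2.51, and EZR had -0.15 and 1.13, the smallest differences of the 5 genes.

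**Figure D3:**
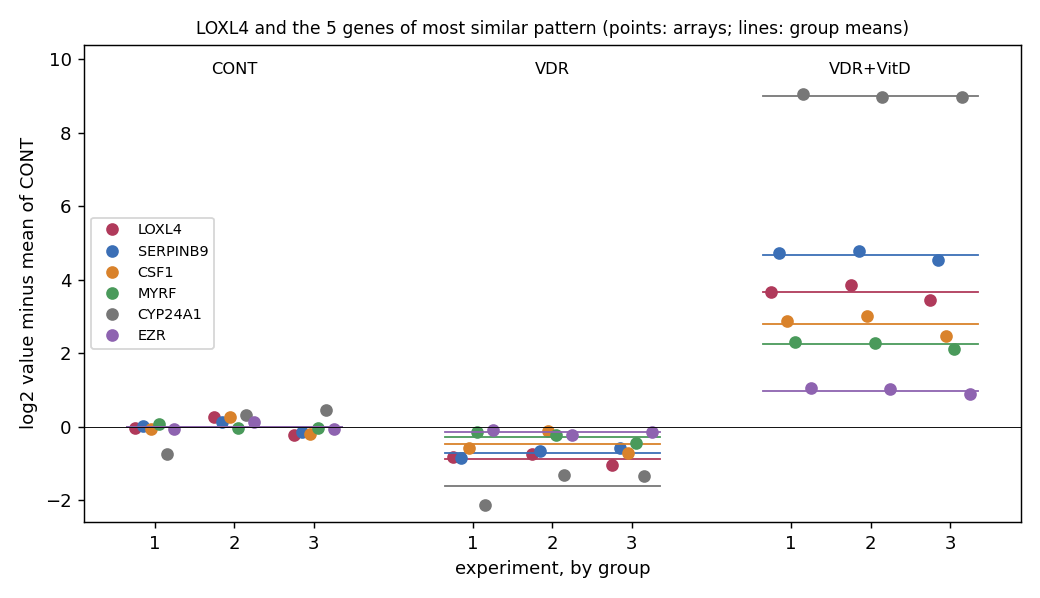
Log2 value minus the mean of the CONT arrays (vertical axis) for LOXL4 and the 5 genes with the highest correlation to it, for each experiment (horizontal axis) within each group, with group means as lines. All 6 genes lie above their CONT mean on the 3 VDR+VitD arrays, by a mean of 0.98 for EZR to 9.01 for CYP24A1, and the mean of each is below 0 in VDR cells.

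Genes of matrix crosslinking around the family were described from 9 lists (collagens, elastic fibres, partners of LOX, enzymes that prepare collagen, copper handling, other amine oxidases, other crosslinkers, regulators of LOX genes and genes of epithelial-mesenchymal transition). Together they hold 108 genes, of which 105 were measured. None of the 105 was called for VDR against CONT (median log2 difference -0.03, against 0.0033 over all genes). For VDR+VitD against VDR, 6 were higher and 3 lower, or 8.57% called against 4.16% over all genes, with a median of 0.01 against -0.023. The 9 called genes lay in 7 of the lists. The lists were chosen with earlier results of these data known, so these shares are a description only.

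**Figure D4:**
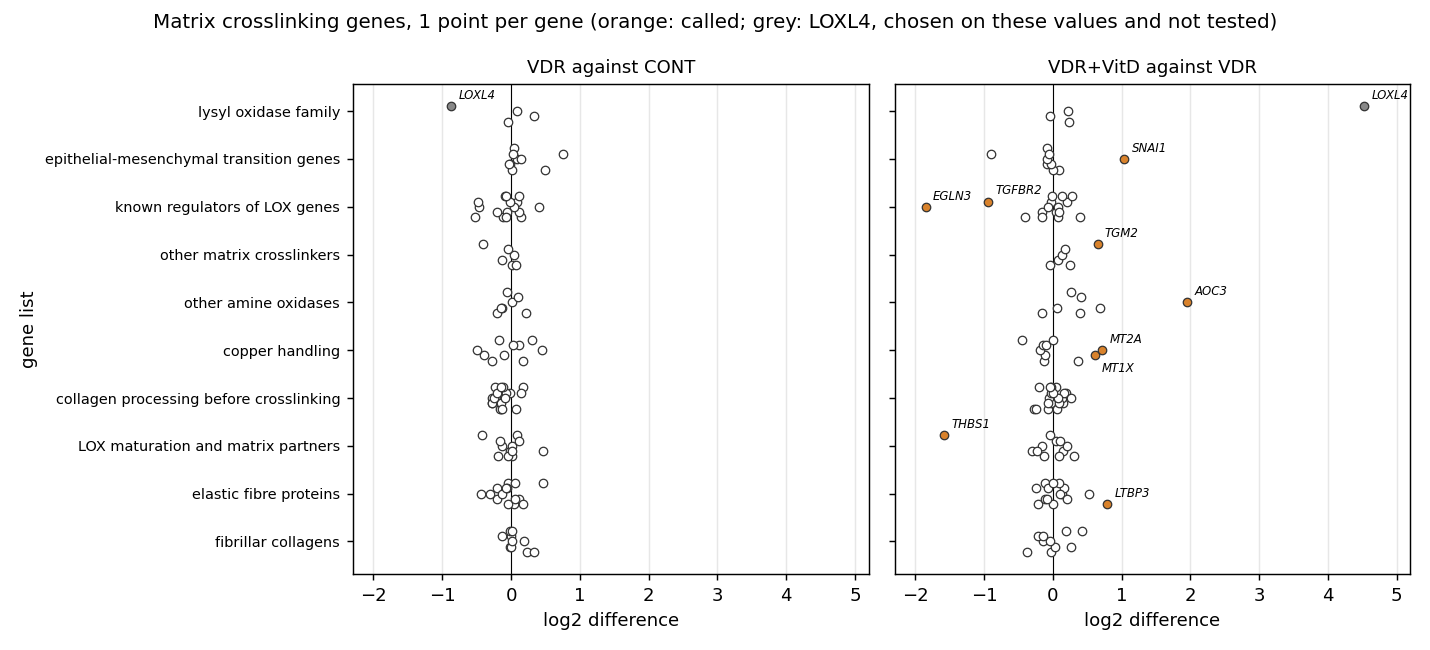
Log2 differences (horizontal axis) of the genes of each list and of the 4 measured members, 1 point per gene, for VDR against CONT (left) and VDR+VitD against VDR (right). Called genes are orange, and LOXL4, on which the family was chosen, is grey; no listed gene is called on the left and 9 are called on the right, with AOC3 the highest of them at 1.95 and EGLN3 the lowest at -1.85.

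Of 11 fibrillar collagens 10 were measured and none was called in either comparison, with differences between -0.13 and 0.34 with Ad-VDR and between -0.37 and 0.42 with VitD. COL27A1 had the lowest p with Ad-VDR (0.34, limma adjusted p = 0.551), and COL5A3 with VitD (0.42, limma adjusted p = 0.178). Of 15 elastic fibre proteins, LTBP3, which anchors latent TGF-beta in the matrix, was higher with VitD and the other 14 were not called (higher calls over all genes, 2.62%). LTBP3 had values of 8.05, 7.54 and 7.79 in VDR and 8.69, 8.78 and 8.28 in VDR+VitD cells, without overlap, and rose by 0.79 (standard error 0.17, limma adjusted p = 0.0109). It was no longer called without VDR replicate 2 or VDR+VitD replicate 1 or 2 (limma adjusted p between 0.0564 and 0.0642). With Ad-VDR, LTBP2 had the lowest p of that list (0.46, limma adjusted p = 0.297).

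Enzymes that prepare collagen for LOX, such as the lysyl hydroxylases and the prolyl hydroxylases, gave no call among 20 measured genes in either comparison. The lowest p was that of PLOD2, a lysyl hydroxylase, with Ad-VDR (-0.28, limma adjusted p = 0.473) and of ADAMTS14, a procollagen peptidase, with VitD (-0.28, limma adjusted p = 0.262). Of 12 genes of LOX maturation and matrix partners, THBS1, which encodes the matrix glycoprotein thrombospondin 1, was lower with VitD (lower calls over all genes, 1.53%). THBS1 had values of 14.33, 14.95 and 13.94 in VDR and 12.96, 13.01 and 12.52 in VDR+VitD cells, and fell by 1.58 (standard error 0.23, limma adjusted p = 4.56e-04), or 2.98-fold, in 3 of 3 experiments. PCOLCE, the enhancer of the protease that also trims LOX, had 0.47 with Ad-VDR (limma adjusted p = 0.303).

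A second copper amine oxidase rose with VitD. AOC3, vascular adhesion protein 1, which oxidises primary amines with a different quinone cofactor, had values of 7.66, 6.84 and 7.50 in VDR and 9.44, 8.98 and 9.43 in VDR+VitD cells. The groups did not overlap, and AOC3 rose by 1.95 (standard error 0.20, limma adjusted p = 1.54e-05), or 3.86-fold, in 3 of 3 experiments. Against CONT cells it was higher by 1.97 (limma adjusted p = 1.23e-05), and with Ad-VDR alone it had 7.33 ± 0.43 against 7.31 ± 0.14 in CONT cells (SD, n = 3 each). The other 6 amine oxidases were not called (higher calls over all genes, 2.62%). The median difference of the list with VitD was 0.39 against -0.023 over all genes. An unadjusted limma p under 0.05 with VitD was found for 4 of the 7, and for 2677 of all 17687 genes. Besides AOC3 these were AOC2, a close relative of it, with 0.68 (limma adjusted p = 0.0959), MAOA, monoamine oxidase A, with 0.41 (limma adjusted p = 0.113) and the polyamine oxidase PAOX with 0.39 (limma adjusted p = 0.278), named here after their values were seen. With Ad-VDR none of the 7 had an unadjusted limma p under 0.05 (1681 of all 17687 genes did). AOC1 had the lowest p (0.22, limma adjusted p = 0.697).

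Of 10 copper handling genes, MT2A and MT1X, metallothioneins that bind zinc and copper, were higher with VitD (higher calls over all genes, 2.62%). MT2A rose by 0.72 (standard error 0.14, limma adjusted p = 0.00684) and MT1X by 0.61 (standard error 0.14, limma adjusted p = 0.0214). With Ad-VDR alone MT2A had -0.50 (limma adjusted p = 0.21) and MT1X -0.39 (limma adjusted p = 0.372), and neither was called between VDR+VitD and CONT cells. MT2A had 16.61 on the array of VDR replicate 1, the lowest of the 9, and without that array it differed by 0.57, below the fold threshold. MT1X was no longer called without VDR replicate 1 or VDR+VitD replicate 2 or 3 (limma adjusted p between 0.0536 and 0.116). The transporters SLC31A1, ATP7A and ATP7B and the chaperone ATOX1, which bring copper to the secretory pathway, were not called. In that order they had 0.03, -0.10, 0.45 and 0.17 with Ad-VDR, and -0.10, -0.12, -0.18 and -0.13 with VitD. For ATP7B with Ad-VDR the limma adjusted p was 0.336.

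Of 6 other crosslinkers, TGM2, tissue transglutaminase, was higher with VitD (higher calls over all genes, 2.62%). TGM2 had values of 11.88, 11.98 and 11.90 in VDR and 12.48, 12.67 and 12.56 in VDR+VitD cells, and rose by 0.65 (standard error 0.14, limma adjusted p = 0.0136). With Ad-VDR alone it had -0.41 (limma adjusted p = 0.345), and VDR+VitD cells overlapped with CONT cells. It was not called without VDR replicate 1 or VDR+VitD replicate 2 (limma adjusted p = 0.0527 and 0.0689).

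Among regulators known for LOX genes, 2 of 16 measured were lower with VitD (lower calls over all genes, 1.53%). EGLN3, a prolyl hydroxylase that marks hypoxia-inducible factors for breakdown, had values of 9.45, 9.20 and 9.18 in VDR and 7.26, 7.60 and 7.43 in VDR+VitD cells, and fell by 1.85 (standard error 0.17, limma adjusted p = 4.28e-06), or 3.60-fold. TGFBR2, the type II receptor for TGF-beta, had values of 14.34, 14.76 and 14.43 in VDR and 13.55, 13.79 and 13.37 in VDR+VitD cells, and fell by 0.94 (standard error 0.16, limma adjusted p = 0.00174). TGFB1, its ligand, had the lowest p of the list with Ad-VDR (-0.52, limma adjusted p = 0.303). Of 9 genes of epithelial-mesenchymal transition, SNAI1, a repressor of E-cadherin, was higher with VitD (higher calls over all genes, 2.62%). SNAI1 rose by 1.04 (standard error 0.19, limma adjusted p = 0.00311), from 7.50, 7.60 and 6.90 in VDR to 8.46, 8.24 and 8.42 in VDR+VitD cells. CDH1, which encodes E-cadherin, had the lowest p of that list with Ad-VDR (0.49, limma adjusted p = 0.176).

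The arrays carried the labelled treatments. VDR was at 6.35 ± 0.39 in CONT, 17.85 ± 0.04 in VDR and 17.50 ± 0.07 in VDR+VitD cells (SD, n = 3 each). Of 9 hepatocyte markers 8 were measured and none was called with Ad-VDR or VitD, with ALB between 16.50 and 16.96 on all arrays. AFP had the lowest p of the list with Ad-VDR (0.45, limma adjusted p = 0.267) and APOA1 with VitD (0.56, limma adjusted p = 0.0705). Their summed level on the log2 scale was 19.25 to 19.29 in CONT, 19.34 to 19.44 in VDR and 19.37 to 19.40 in VDR+VitD cells.

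Markers of matrix-producing and other liver cells were also measured, since lysyl oxidases are best known from such cells. Of 11 stellate cell and fibroblast markers 10 were measured and none was called, with a summed level of 13.49 to 13.75 in CONT, 13.78 to 14.14 in VDR and 13.73 to 13.86 in VDR+VitD cells. COL1A1 was between 4.50 and 5.17, PDGFRB between 6.49 and 7.37 and ACTA2 between 10.88 and 11.36. RELN, with group means of 13.30, 13.62 and 13.50 in the same order of groups, made up most of the stellate cell and fibroblast sum. RELN also had the lowest p of the list with Ad-VDR (0.32), and DCN with VitD (0.20). The 7 endothelial markers summed to 7.50 to 7.66, 7.68 to 7.75 and 7.65 to 7.77, with PECAM1 (0.47 with Ad-VDR) and VWF (-0.32 with VitD) at the lowest p and CDH5 between 5.34 and 6.28. The 6 macrophage markers summed to 11.35 to 11.66, 11.05 to 11.22 and 10.79 to 11.28, in the same order of groups, with CD68 (-0.39 with Ad-VDR) and VSIG4 (0.30 with VitD) at the lowest p and CD163 between 5.45 and 6.21. CD68, with group means of 11.35, 10.96 and 10.91, made up most of the macrophage sum. None of these markers was called, and the part of these shifts in the values of the family was not tested. The arrays came from cultures of the HepG2 line, so these values describe the expression of marker genes in that line. They were not read as numbers of stellate, endothelial or macrophage cells.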

How the data were processed

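RNA of 9 HepG2 cultures was hybridised to Clariom S arrays. The authors deposited log2 values made by RMA (background correction, quantile normalization, summary per transcript cluster), for which the submitters' processing notes name Transcriptome Analysis Console 4.0.2. Quantile normalization hides a shift of most genes in 1 direction. Values were rounded to 2 decimals, and the sources used here do not give a genome build. The platform annotation paired 17709 of 21448 clusters with a single symbol and the other 3739 with no symbol. Symbols were updated by Entrez identifier, and clusters of the same gene were averaged (17687 genes). No gene was filtered out.

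All genes were fitted with limma 3.58.1 in R 4.3.3 (lmFit, eBayes; 9 arrays, group as the only factor), with Benjamini-Hochberg adjustment over 17687 genes. Genes were named by rule: every measured member, the 5 genes most correlated with LOXL4, VDR and CYP24A1, defining cell type markers, and in each list up to 3 called genes with the largest change or else the lowest p, for Ad-VDR and for VitD. The transporters and the chaperone of copper were named in addition. The members and lists were chosen with earlier results of these data known. The limma fit of VDR+VitD against VDR was tested on simulated data with independent noise and no effect of the experiment. The other steps were not tested in this way.

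Same-numbered arrays come from the same experiment per the labels. Their deviations from the group means correlated with r between 0.042 and 0.145 in 9 pairs, against -0.096 to 0.010 in 18 pairs from different experiments and groups. Upstream windows came from RefSeq, for the outermost start listed for each gene. They were examined for the 4 measured members, and LOXL2 was left out. The number of arrays limits the precision.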

Additional observations from a re-analysis of the deposited data

How the results depend on the processing

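The LOXL4 differences kept their direction in every setting tried, between -0.99 and -0.74 for VDR against CONT, 4.10 and 4.64 for VDR+VitD against VDR, and 3.54 and 3.80 for VDR+VitD against CONT. The value of 4.10 is that against all 6 arrays without VitD, a setting added after the data were seen. LOX, LOXL1 and LOXL3 were called in no setting. Near 0, LOX for VDR against CONT was between -0.19 and 0.10 when single arrays were left out (0.10 without CONT replicate 1, 0.07 without VDR replicate 2). LOXL3 was between -0.10 (without VDR replicate 3) and 0.27 (without VDR replicate 2), and with VitD between 0.04 (without VDR replicate 2) and 0.40 (without VDR replicate 3). LOX with VitD was between 0.12 and 0.32 against VDR and between 0.03 and 0.32 against CONT. LOXL1 was between 0.14 (without VDR replicate 1) and 0.52 (without VDR replicate 2) for VDR against CONT, and between 0.17 and 0.54 for VDR+VitD against CONT. LOXL1 with VitD was between -0.22 and 0.19 (0.16 without VDR replicate 1, 0.19 without VDR+VitD replicate 2), and 0.13 against all 6 arrays without VitD. With dim genes left out, LOXL1 was not tested.

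The count of 72 genes for VDR against CONT became 140 with the experiment as a block, 141 over the 8000 most variable genes, 142 with an intensity trend and 11 when limma tested for more than 1.5-fold (treat). Leaving out single arrays gave between 27 (CONT replicate 2) and 69 (VDR+VitD replicate 3), with 35 when VDR replicate 3 and 37 when VDR replicate 1 was left out. With treat, 188 genes were called for VDR+VitD against VDR and 207 for VDR+VitD against CONT. That test kept AOC3, EGLN3 and THBS1, and ended the calls of LTBP3, MT2A, MT1X, TGM2, TGFBR2 and SNAI1, which the higher demand on the fold accounts for by construction. Against all 6 arrays without VitD, MT2A (0.47), MT1X (0.41) and TGM2 (0.45) were not called. CYP24A1 with Ad-VDR was also not called with only the 6 arrays compared (limma adjusted p = 0.0751). The block changed no call of LOX, LOXL1, LOXL3, CYP24A1 or the 9 listed genes called with VitD. Of the 5 genes most like LOXL4, 3 were shared when the means of the experiments were taken out (the block) and between 2 and 5 when single arrays were left out. The causes were not tested.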

Other observations

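The nearest measured genes along the chromosome were examined for each member, a choice made after the values of the members were known. For LOXL4, on chromosome 10, these were GOLGA7B, CRTAC1 and R3HCC1L on one side and HPSE2, CNNM1 and GOT1 on the other. None of the 6 was called with limma in VDR+VitD against VDR, none had an unadjusted p under 0.05, and their log2 differences lay between -0.43 and 0.16, while LOXL4 between them was at 4.53. GOT1, the cytosolic aspartate aminotransferase, was at a mean log2 value of 15.36 and differed by -0.07. For VDR against CONT the 6 genes had differences between -0.30 and 0.20, also with no unadjusted p under 0.05. Of the 24 neighbours of the 4 members, none was called with limma in either comparison, and 2 near LOXL1 had an unadjusted p under 0.05 with VitD. Over all genes 4.16% were called with VitD and 0.407% with Ad-VDR, so the absence of calls among 24 genes says little. An unadjusted limma p under 0.05 with VitD was found for 2677 of all 17687 genes. Genes between these that the table does not name were not analysed here.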
